A study of Mus musculus with 24 samples.

Results

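The nuclear pore complex is encoded here by 28 protein-coding genes, chosen by symbol: every gene of the annotation named Nup followed by a number (with or without a final l), plus Ranbp2, Sec13, Seh1l, Rae1, Aaas, Ndc1, Pom121 and Tpr. They are 28 of 21974 protein-coding genes and of 55471 annotated genes. Nupl1 and Nupl2, which encode further nucleoporins, carry older symbols in this annotation and were not among them. mRNA and m6A were measured in mice of the B6D2F1 background at 3 points of the maternal-to-zygotic transition, the handover from stored oocyte mRNA to transcription by the embryo. Metaphase II oocytes (MII, 14 to 16 h after hCG), late 1-cell embryos (L1C, 27 to 29 h) and late 2-cell embryos (L2C, 48 to 50 h) each gave 3 input libraries and 3 libraries from RNA precipitated with an m6A antibody (IP), by the low-input SLIM-seq protocol. In a second experiment, zygotes received Cas13d mRNA with 3 crRNAs against Ythdc1, which encodes the nuclear m6A reader (Ythdc1 KD, 3 libraries), and the controls, labelled NC, received Cas13d mRNA alone (Ctrl, 3 libraries), and all 6 were taken at L2C. Females aged 8 weeks were superovulated, oocytes were freed of cumulus cells with hyaluronidase, and embryos came from matings within the strain and were cultured from the zygote on. Each IP took 100 ng of RNA and 0.5 µg of antibody, and m6A in the injected embryos was not analysed here.

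The nuclear pore complex is the channel through the nuclear envelope by which proteins and RNA pass between nucleus and cytoplasm. Y complexes form its outer rings, an inner ring anchors a central channel of phenylalanine-glycine repeat proteins, transmembrane nucleoporins hold it in the membrane, and filaments and a basket extend to the cytoplasm and into the nucleus. Oocytes store pore proteins and their mRNAs, pores are taken apart at the meiotic divisions and rebuilt around the pronuclei, and importins, exportins and the small GTPase Ran carry cargo through them. m6A is deposited on nascent mRNA in the nucleus, and exported mRNA leaves through these pores.

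The SLIM-seq libraries held 11107421 to 39739950 estimated counts, and the knockdown libraries 8696476 to 14500548 counts in the 5 that covered the whole annotation. The Ythdc1 KD library numbered 3 and the merged knockdown table ended on chromosome 7, so 15 members were compared in 3 against 3 libraries and 13 in 2 Ythdc1 KD against 3 Ctrl libraries. The levels of the 15 are scaled to the counts of the table, which held only part of each library, and are not comparable in size with those of the 13. Ythdc1 itself was at 521, 539 and 518 counts scaled to library size (CPM) in the Ythdc1 KD libraries and 1077, 1094 and 991 CPM in the Ctrl libraries, a linear fold of 0.499. Summed oocyte markers (9 genes, Zp3 and Gdf9 among them) ran from 18863 to 19865 CPM at MII, from 6792 to 6882 at L1C and from 878 to 907 at L2C. The sum of 7 markers of the 2-cell embryo, Zscan4c among them, ran from 6.44 to 7.79 CPM at MII, from 59.6 to 85.4 at L1C and from 318 to 453 at L2C. Cumulus cell markers (12 genes) summed to at most 18.8 CPM in any library of these groups, with Ptx3 at 0 in all of them, and 5 sperm genes to at most 3.01 CPM at MII and 73.6 CPM at L2C. Prm1 alone made up 58.4, 72.3 and 54.8 CPM of the sperm sums at L2C, and was at 0 in the 5 knockdown libraries that covered it. Prm2 went from a mean of 2.26 CPM at L1C to 0.864 at L2C, and Tnp1 was at 0 at L2C. Nothing in the labels says which replicates came from separate pools of oocytes, so every p measures the spread between these libraries only.

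SLIM-seq reads were assigned to whole gene spans without regard to strand, and reads in overlapping spans are shared between genes. Nup133 lies wholly within the span of Gm20388 on the other strand, and it was listed at 0 counts in all 6 MII and L1C inputs and at 140, 82 and 210 counts in the L2C inputs. No change or enrichment of Nup133 in SLIM-seq is therefore given, although the fit counts it as higher at L2C. Nup43 (within Pcmt1), Seh1l (within 4930549G23Rik) and Nup62 (98.0% of its span shared with Il4i1) are uncertain for the same reason. The knockdown libraries were counted over exons, and their levels at L2C differed from those of the inputs in both directions. Mean levels were 23.8 CPM in the inputs and 0.695 in Ctrl for Nup210, 88.3 and 6.63 for Nup188, and 217 and 1141 for Nup98. Whether a course in the span counts is that of spliced mRNA was not tested.

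Between MII and L1C, pore mRNAs were mostly lower, and between L1C and L2C they moved in both directions, by up to 3.31 on the log2 scale downwards (Nup37) and 3.55 upwards (Nup210l). At L1C against MII, 5 of 28 members were higher and 16 lower (edgeR adjusted p under 0.05), where 31.5% of all 15279 mRNAs tested were higher and 27.6% lower. The median log2 change was -0.39 over the members and 0.09 over the mRNAs. At L2C against L1C, 11 were higher and 13 lower, beside 44.2% and 39.3% of mRNAs, with medians of -0.14 and 0.15. At L2C against MII, 8 were higher and 14 lower, beside 46.8% and 38.3%, with medians of -0.33 and 0.29. Without Nup133, Nup43, Nup62 and Seh1l, an alternative chosen after seeing the data, the last comparison had 5 higher and 13 lower. Summed over the members, the inputs held 5013 ± 60.6 CPM at MII, 3616 ± 194 at L1C and 2721 ± 122 at L2C (SD, n = 3), and the ranges of the 3 stages did not overlap. Levels are shares of a library, so a lower share and less of that mRNA per embryo cannot be told apart.

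**Figure D1:**
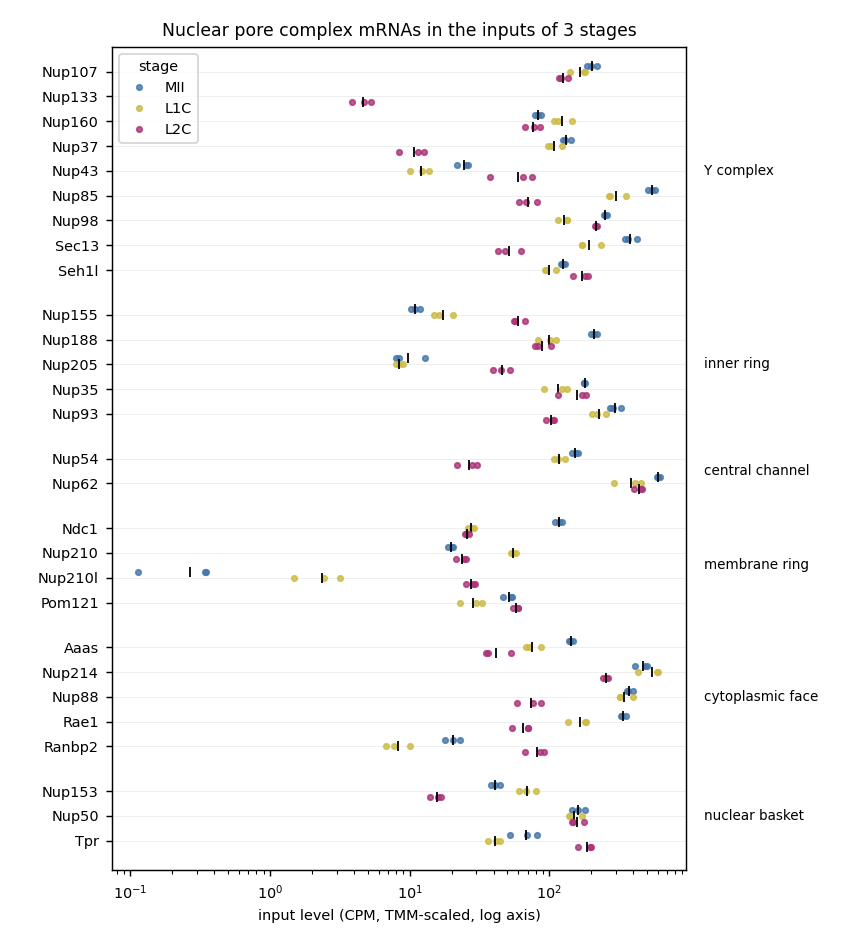
Input level of each pore mRNA in CPM (log axis) in the 3 libraries of MII (blue), L1C (yellow) and L2C (magenta), grouped by place in the pore, where dots are libraries and the black bar is their mean. Nup210l spans the widest range, from 0.269 CPM at MII to 27.7 at L2C, libraries at 0 (Nup133 at MII and L1C) are not drawn, and Nup50 stays within one narrow band.

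Among the Y complex genes, which encode the scaffold of the outer rings, Nup37, Nup85 and Sec13 fell most. Nup37, a peripheral subunit, was at 129.9, 126 and 142 CPM at MII, 123, 98.4 and 103 CPM at L1C and 11.4, 8.36 and 12.6 CPM at L2C. The L2C libraries lay far below all 6 others, and Nup37 fell by 3.31 ± 0.16 (SE) on the log2 scale from L1C to L2C (edgeR adjusted p = 1.57e-10). Nup85, a subunit of the short arm of the Y, was at 569, 513 and 549 CPM at MII, 268, 273 and 358 CPM at L1C and 61.2, 82.2 and 68.3 CPM at L2C. It fell at both steps, by 0.86 and then 2.09, to 0.13 of its MII level. Sec13, shared between the Y complex and the COPII coat of the secretory pathway, fell by 0.98 and 1.91. Its libraries did not overlap between any 2 stages, at 429, 365 and 349 CPM at MII, 172, 171 and 234 CPM at L1C and 42.8, 62.8 and 48.04 CPM at L2C.

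Nup107, in the stem of the Y, and Nup160, in its long arm, moved less. Nup107 had log2 changes of -0.28 at L1C (edgeR adjusted p = 0.0832) and -0.41 at L2C against L1C (adjusted p = 0.00894). With DESeq2 the first was called (-0.34, adjusted p = 0.0341) and the second was not (-0.27, adjusted p = 0.0757). Nup160 rose by 0.56 at L1C and fell by 0.68 at L2C, with no call against MII (-0.11, edgeR adjusted p = 0.452). Nup98, whose single transcript encodes both the mobile channel protein Nup98 and the scaffold protein Nup96, was at 245, 250.01 and 259.6 CPM at MII, 135, 116 and 134 CPM at L1C and 221, 214 and 215 CPM at L2C. It was lowest at L1C without overlap, with a fall of 0.97 ± 0.11 and then a rise of 0.76 ± 0.11 (edgeR adjusted p = 5.23e-06 and 1.51e-05). Seh1l fell by 0.33 and rose by 0.79, but the call of its fall was lost without any single MII or L1C input other than the first L1C input (adjusted p 0.0564 to 0.0969). Nup43, a peripheral subunit, fell by 1.02 and rose by 2.31.

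Inner ring genes, which build the scaffold around the channel, split. Nup155, which joins the inner ring to the membrane, was at 10.2, 11.8 and 10.9 CPM at MII, 20.4, 16.3 and 14.97 CPM at L1C and 56.9, 56.3 and 66.9 CPM at L2C. It rose at both steps, by 0.65 ± 0.16 and 1.80 ± 0.15 (edgeR adjusted p = 0.00279 and 5.50e-08). Nup205, one of a pair of large related adaptors, was at 13.00, 8.39 and 8.00 CPM at MII, 9.00, 8.35 and 8.02 CPM at L1C and 45.2, 39.9 and 52.3 CPM at L2C. Its L2C libraries stood above all others (rise of 2.44 ± 0.20 against L1C, adjusted p = 3.02e-08). Its partner paralog Nup188 went the other way, with 219, 211 and 198 CPM at MII, 83.5, 102 and 113 CPM at L1C and 79.1, 103 and 83.1 CPM at L2C. Nup188 fell by 1.07 ± 0.14 at L1C (adjusted p = 2.07e-05) and was not called from L1C to L2C (-0.17). Without L1C input 1, the latter step was called (-0.31, edgeR adjusted p = 0.044). Nup93, the linker that holds the ring together, fell by 0.39 and 1.13, and Nup35, which touches the membrane, fell by 0.62 and rose by 0.43. The L1C and L2C libraries of Nup35 overlapped, and the call of its rise was lost without L1C input 3 (adjusted p = 0.167), L2C input 1 (0.11) or L2C input 3 (0.167). The fall of Nup93 at L1C was lost without the first MII input (0.0746) or the second L1C input (0.0723).

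Of the central channel genes, Nup54 was at 147, 155 and 159.8 CPM at MII, 115, 130.05 and 108 CPM at L1C and 27.9, 21.9 and 30.4 CPM at L2C. It fell by 2.14 ± 0.14 from L1C to L2C (edgeR adjusted p = 3.03e-09), with every L2C library below every earlier one. The call of its smaller fall at L1C was lost without MII input 2 or 3 or L1C input 1 or 3 (0.0528 to 0.0812). Nup62, its partner in the channel trimer, fell by 0.65 at L1C and was not called after that (0.20), and remained the most abundant pore mRNA per kilobase, of exon or of span, at each of the 3 stages.

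In the membrane ring, Ndc1, a transmembrane nucleoporin needed for pore assembly in the intact envelope, was at 123, 118 and 111 CPM at MII, 28.01, 29.02 and 26.3 CPM at L1C and 25.2, 25.1 and 26.6 CPM at L2C. It fell by 2.08 ± 0.12 at L1C (edgeR adjusted p = 6.15e-09) and was not called after that (-0.11 at L2C against L1C). Nup210, known from differentiating muscle and neural cells, was at 20.4, 20.2 and 18.9 CPM at MII, 57.5, 53.3 and 55.4 CPM at L1C and 24.5, 25.4 and 21.5 CPM at L2C. Its L1C libraries stood above the others, with a rise of 1.48 ± 0.13 and a fall of 1.22 ± 0.13. These are span counts, and the exon-counted Ctrl libraries at L2C held only 0.819, 0.382 and 0.885 CPM of Nup210. Its paralog Nup210l was at 0.344, 0.349 and 0.113 CPM at MII, 2.45, 1.48 and 3.18 CPM at L1C and 25.2, 29.2 and 28.7 CPM at L2C. The linear fold between MII and L2C was 98.1, on 8, 7 and 2 estimated counts at MII and 746, 615 and 1134 at L2C (log2 change 6.62 ± 0.34, adjusted p = 1.68e-10). Pom121, a transmembrane protein with channel repeats, fell by 0.84 and rose by 1.02, with no call against MII (0.18, adjusted p = 0.25).

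Of the 5 genes of the cytoplasmic face, 4 were lower at L2C than at MII and Ranbp2 was higher, beside 38.3% and 46.8% of all mRNAs. Ranbp2 encodes the large filament protein that binds Ran and acts as a SUMO ligase, and was at 17.95, 20.5 and 23.1 CPM at MII, 10.1, 6.82 and 7.75 CPM at L1C and 91.4, 67.1 and 85.9 CPM at L2C. It fell by 1.31 ± 0.18 and then rose by 3.30 ± 0.19 (edgeR adjusted p = 3.49e-05 and 6.44e-10), so that L1C was its lowest point without overlap. Rae1, which binds Nup98 and takes part in mRNA export, was at 331, 327 and 358 CPM at MII, 136, 182 and 181 CPM at L1C and 54.5, 70.2 and 70.1 CPM at L2C. It was lower at each step, by 1.02 and 1.36. Aaas, which encodes the scaffold protein ALADIN tethered by Ndc1, was at 149, 141 and 139 CPM at MII, 67.8, 72.1 and 87.1 CPM at L1C and 36.7, 53.7 and 35.4 CPM at L2C. It fell by 0.92 and 0.85. Nup88 and Nup214, partners on the cytoplasmic side, were not called at L1C (-0.12 and 0.22) and fell by 2.22 and 1.09 at L2C against L1C. Without L1C input 1, Nup214 was called higher at L1C (0.36, edgeR adjusted p = 0.0188).

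The nuclear basket genes took 3 different courses. Tpr, the coiled-coil protein that forms the basket filaments, was at 52.5, 69.2 and 82.3 CPM at MII, 44.4, 41.7 and 36.7 CPM at L1C and 195, 162 and 201 CPM at L2C. It rose by 2.18 ± 0.17 from L1C to L2C (edgeR adjusted p = 1.40e-08), after a fall of 0.73. Nup153, which anchors the basket to the ring, was at 38.5, 40.7 and 44.2 CPM at MII, 80.5, 60.5 and 67.9 CPM at L1C and 16.7, 14.1 and 16.05 CPM at L2C. It had a rise of 0.76 ± 0.14 and a fall of 2.15 ± 0.15 (adjusted p = 3.72e-04 and 3.98e-09). Nup50, a cofactor of importin-dependent import, was called in neither step, with 145, 161 and 179.9 CPM at MII, 138, 144 and 171 CPM at L1C and 148, 177 and 146 CPM at L2C and overlap of all 3 stages. By direction at the 2 steps, 6 members fell at both (Aaas, Nup54, Nup85, Nup93, Rae1 and Sec13), 7 fell and then rose (Nup35, Nup43, Nup98, Pom121, Ranbp2, Seh1l and Tpr), 3 rose and then fell (Nup153, Nup160 and Nup210), and 2 rose at both (Nup155 and Nup210l). Of all mRNAs tested, 12.1%, 11.1%, 12.1% and 14.7% took these 4 paths in the same order.

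Divided by exon length, the order of levels changed between stages. At MII it was led by Nup62 (212 ± 6.20 CPM per kilobase of exon, SD, n = 3), Nup85 (161 ± 8.51), Rae1 (133 ± 6.54) and Sec13 (119.7 ± 13.2), of which Rae1 and Sec13 lay within their spread of each other. At L2C it was led by Nup62 (155 ± 10.98), Nup35 (46.7 ± 10.99), Seh1l (41.7 ± 5.22), Nup107 (32.5 ± 2.83) and Nup50 (32.1 ± 3.47), and these last 4 overlapped with a neighbour. Nup85 went from the second to the tenth place. In the exon counts of the Ctrl libraries at L2C, the order was led by Nup98 and Nup43, with Nup62 in the fifth place. The counts cover whole spans with introns, and the order depends on the length used: per kilobase of span it ran Nup62 (41.1), Sec13 (30.1), Nup85 (27.8) and Rae1 (21.7) at MII, and Nup62 (29.98), Seh1l (8.34), Nup50 (8.04), Nup43 (5.22) and Rae1 (4.16) at L2C, with Nup35 in the seventh place. Over 27 members (all but Nup133), exon length and log2 change at L2C against MII had a Spearman rho of 0.52, where all mRNAs tested had -0.147. By span length the values were 0.368 and -0.198. These points share libraries and a read assignment that includes introns, and are given as a description.

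Other genes of nuclear transport were followed as lists, with values given as log2 changes and, in each direction, the gene with the smallest p named. Beside them, 44.2% of all mRNAs tested were higher and 39.3% lower at L2C against L1C, 31.5% and 27.6% at L1C against MII and 46.8% and 38.3% at L2C against MII, and nothing particular to a list is read from its count. Of 24 importins and exportins, 17 rose and 5 fell at L2C against L1C (median log2 change 1.36), among them Tnpo3, the import receptor for splicing factors (6.07 ± 0.18, edgeR adjusted p = 2.10e-12), while Kpna7, the importin alpha of oocytes, fell by 2.02. At L1C against MII, 11 rose and 8 fell, among them Kpna2 (4.60) and Xpo6 (-1.38). Of the Ran cycle, 6 of 6 genes tested rose from L1C to L2C, with Rangap1, the activator of GTP hydrolysis by Ran, at 4.48, after 3 falls (Rangap1 -0.76) and 1 rise (Ranbp1 1.18) at L1C. Of 13 mRNA export genes, 6 rose and 5 fell from L1C to L2C, among them Thoc5 (3.85) and Ddx19a (-2.49), and 1 rose and 6 fell at L1C, among them the export receptor Nxf1 (2.51) and its partner Nxt1 (-2.36).

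Of 7 genes of proteins that bind the pore, 5 rose and 2 fell from L1C to L2C, among them Nup62cl, on 1, 2 and 4 estimated counts at L1C and 610, 320 and 819 at L2C, and the SUMO protease Senp1 (-0.82), after 1 rise (Senp2 1.24) and 2 falls (Mad1l1 -0.74) at L1C. Of 10 genes of the lamina and envelope, 6 rose and 2 fell at that step, among them the lamin B receptor Lbr (2.35) and Banf1 (-0.58), after 1 rise (Sun1 2.33) and 6 falls (Lbr -1.08) at L1C. Against MII, the changes of smallest p at L2C were Tnpo3 (5.57) and Kpna7 (-2.03) among receptors, Rangap1 (3.72) in the Ran cycle. They were Nxf1 (4.67) and Ddx19a (-3.00) in export, Senp2 (4.40) and Senp1 (-1.36) at the pore, and Tmpo (2.53) and Lmnb2 (-2.56) in the lamina, all with edgeR adjusted p under 0.05.

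RefSeq promoters of build GRCm38.p6 (250 bases before to 50 after the start) were at hand for 23 members. Of these, 4 are shown: Nup37 and Sec13, the largest falls from MII to L2C among them, and Ranbp2 and Tpr, whose rises from L1C to L2C had the smallest p among them. Capitals mark the core of ETS factor sites, CCGGAAG, and the short form of the cAMP response element, TGACG, on either strand. Neither motif contains the other, and both were chosen after the stage changes had been seen.
Nup37, chr10:88146742-88147041, plus strand: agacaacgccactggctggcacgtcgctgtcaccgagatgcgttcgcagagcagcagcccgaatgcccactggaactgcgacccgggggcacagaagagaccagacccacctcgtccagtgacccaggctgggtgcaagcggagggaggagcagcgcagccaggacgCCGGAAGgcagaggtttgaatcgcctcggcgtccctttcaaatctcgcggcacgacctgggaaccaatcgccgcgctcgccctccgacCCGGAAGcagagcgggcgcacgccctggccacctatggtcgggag
Sec13, chr6:113740632-113740931, minus strand: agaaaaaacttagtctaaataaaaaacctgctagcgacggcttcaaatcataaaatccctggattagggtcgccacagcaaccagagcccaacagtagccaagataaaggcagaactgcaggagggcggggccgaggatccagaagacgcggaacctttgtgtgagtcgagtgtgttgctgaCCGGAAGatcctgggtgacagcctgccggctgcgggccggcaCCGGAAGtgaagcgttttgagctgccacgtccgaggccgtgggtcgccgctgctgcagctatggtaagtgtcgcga
Ranbp2, chr10:58446602-58446901, plus strand: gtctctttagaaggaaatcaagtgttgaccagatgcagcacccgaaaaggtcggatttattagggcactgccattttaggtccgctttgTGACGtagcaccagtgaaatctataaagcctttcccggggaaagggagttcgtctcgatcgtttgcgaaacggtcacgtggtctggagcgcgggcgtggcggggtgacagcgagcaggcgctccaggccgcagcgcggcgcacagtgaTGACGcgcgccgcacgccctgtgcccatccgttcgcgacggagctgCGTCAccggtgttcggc
Tpr, chr1:150392588-150392887, plus strand: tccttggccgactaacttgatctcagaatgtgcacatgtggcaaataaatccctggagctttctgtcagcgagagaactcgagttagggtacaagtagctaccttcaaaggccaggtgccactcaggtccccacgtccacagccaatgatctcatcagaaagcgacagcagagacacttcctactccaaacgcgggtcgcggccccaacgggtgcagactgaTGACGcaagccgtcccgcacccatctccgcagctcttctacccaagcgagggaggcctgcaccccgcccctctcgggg
The promoters of Nup37 and Sec13 hold 2 ETS cores each and those of Ranbp2 and Tpr none. The 2 pairs were picked by unlike rules, and nothing is read from this contrast. The promoter of Nup155, which rose by 2.45 from MII to L2C, holds 1 ETS core. That of Nup205, which rose by 2.22, holds none. ETS cores were found in the promoters of 7 of the 23 members (Aaas, Nup107, Nup155, Nup37, Nup54, Rae1 and Sec13). Some members have more than 1 promoter, and ETS cores were in 8 of their 26 promoters and in 8.86% of all 32851 promoters of the table. At L2C against MII, 6 of these 7 members were lower and 1 higher (Nup155). Of the 15 without an ETS core, Nup133 left out, 7 were lower, 3 higher and 5 not called. Of all mRNAs tested, 38.3% were lower and 46.8% higher, and no share was computed for all genes with an ETS core. Since motif and members were chosen with the changes known, these counts are given with no test. TGACG was found in 11 members (Ndc1, Nup133, Nup153, Nup155, Nup214, Nup54, Nup98, Pom121, Rae1, Ranbp2 and Tpr, which include members that rose and members that fell). It was in 12 of the 26 promoters of members and in 20.8% of all promoters. CCAAT was found in 9 members, with 11 of 26 promoters beside 37.4% of all, and TATAAA in 3 members, with 3 of 26 beside 13.6%. GGATTA, the OBOX site, was found in 1 member (Sec13), with 1 of 26 beside 7.06%. Pore promoters were also rich in CpG, with a median of 28 CpG in 300 bases against 7 over the table. The ETS core and TGACG both contain CpG, and the shares over all promoters were not matched for it. A match is a stretch of letters and not a measured binding site.

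In the IP, pore mRNAs were more often depleted than enriched. At MII, 2 members were higher in the IP than in the input and 16 lower (edgeR adjusted p under 0.05), beside 18.6% and 25.6% of 16163 mRNAs. At L1C the counts were 3 and 15, beside 16.0% and 22.4%, and at L2C 7 and 11, beside 21.6% and 26.6%. The median log2 IP/input of the members was -0.50, -0.40 and -0.22 at the 3 stages, where that of all mRNAs was 0, 0 and -0.01. With scaling by library size alone, which puts the median of all mRNAs at 0.16, 0.29 and 0.24 on the log2 scale, the splits were 5 and 13, 8 and 10, and 9 and 8. By thresholds taken from the study's rule for m6A-tagged mRNAs (positive log2, unadjusted P under 0.05, over 1 count in each input), applied here to the edgeR fit and without that rule's steps for missing P values and for single replicates, 3, 5 and 7 members were tagged, beside 20.5%, 19.3% and 23.7% of mRNAs.

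**Figure D2:**
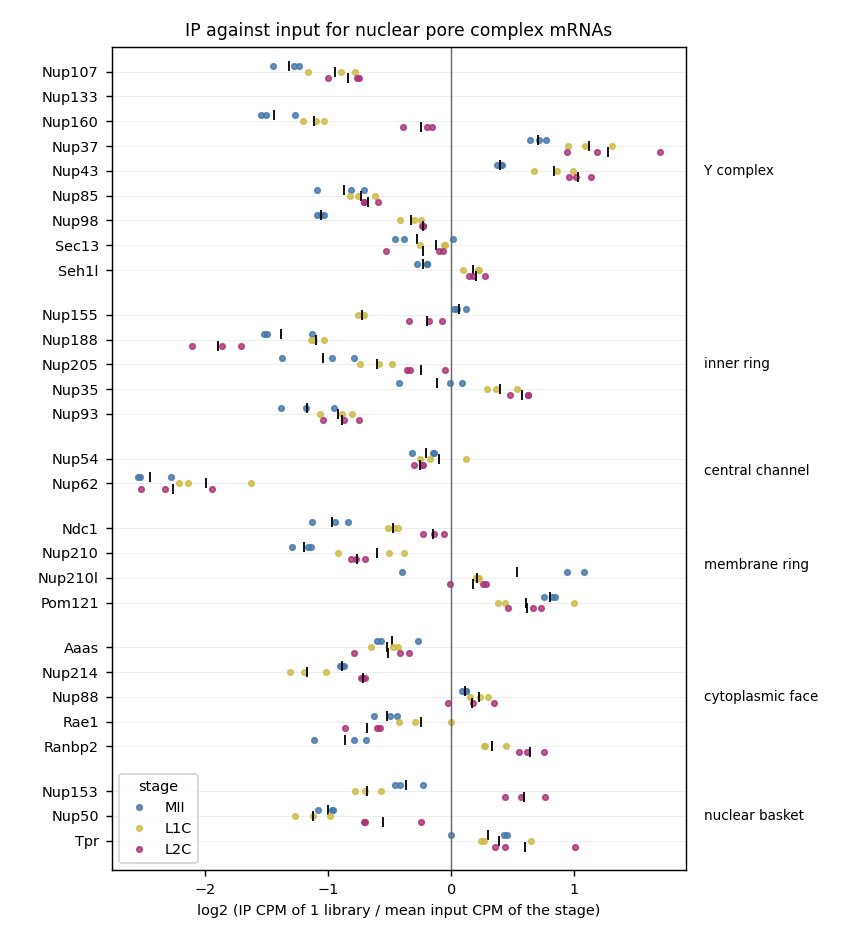
Log2 ratio of each IP library's CPM to the mean input CPM of its stage for 27 pore mRNAs, with MII in blue, L1C in yellow and L2C in magenta, dots for libraries and a black bar for their mean, and Nup133 not drawn. Nup62 lies farthest left at MII and L1C and overlaps Nup188 there at L2C, Nup37, Pom121 and Nup43 lie right of 0 throughout, and Ranbp2, Nup98, Nup153 and Nup160 move right by L2C.

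Nup37 and Pom121 were enriched at each of the 3 stages, beside 7.13% of mRNAs. The 3 IP libraries of Nup37 had log2 ratios to the mean input of 0.77, 0.72 and 0.64 in MII oocytes, 1.31, 1.09 and 0.95 at L1C and 0.94, 1.70 and 1.18 at L2C, all above 0. The fitted values were 0.71 ± 0.17, 1.12 ± 0.17 and 1.29 ± 0.18 (edgeR adjusted p = 0.00227, 3.92e-05 and 1.28e-05). Pom121 had 0.82, 0.84 and 0.75 in MII oocytes, 0.38, 0.43 and 1.00 at L1C and 0.73, 0.46 and 0.66 at L2C, again all above 0, with adjusted p = 2.84e-04, 0.00312 and 0.0025. Nup43, whose span lies within Pcmt1, had 0.38, 0.40 and 0.41 in MII oocytes, 0.99, 0.86 and 0.67 at L1C and 1.13, 0.96 and 1.01 at L2C. It was called at L1C and L2C but not at MII (adjusted p = 0.106), where it was called with DESeq2 (0.042), with library size alone (0.00923) and with the 6 MII libraries alone (0.00549). At L2C, Ranbp2 (0.64), Tpr (0.63), Nup153 (0.59) and Nup35 (0.57) were enriched too. The call of Tpr was lost without the second L2C input (adjusted p = 0.0608) or the second L2C IP (0.089), and that of Nup35 without the second L2C input (0.0795).

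The channel protein Nup62 had the lowest mean ratio of the 27 members at each stage, -2.55, -2.27 and -2.53 in MII oocytes, -2.21, -2.14 and -1.63 at L1C and -1.94, -2.52 and -2.32 at L2C. Its fitted values were -2.44, -1.97 and -2.23 (edgeR adjusted p = 3.63e-09, 9.93e-08 and 2.13e-08), with all 9 IP libraries far below 0, though nearly all of its span is shared with Il4i1. Nup188 had -1.50, -1.13 and -1.52 in MII oocytes, -1.12, -1.14 and -1.03 at L1C and -1.71, -2.11 and -1.86 at L2C, and at L2C its libraries overlapped those of Nup62. Nup93, its inner ring partner, had -1.18, -0.95 and -1.39 in MII oocytes, -0.80, -0.89 and -1.07 at L1C and -0.75, -1.04 and -0.87 at L2C. Nup214 of the cytoplasmic face had -0.87, -0.89 and -0.90 in MII oocytes, -1.19, -1.31 and -1.01 at L1C and -0.70, -0.74 and -0.72 at L2C. Depleted at each stage were 10 members, namely Aaas, Nup107, Nup188, Nup210, Nup214, Nup50, Nup62, Nup85, Nup93 and Nup98, beside 12.1% of mRNAs. The study took input and IP RNA from the same batches, without saying that the numbers match, and with replicate number as a block 8 of the 10 kept a call at all stages: Aaas lost its call at all 3 stages (adjusted p = 0.0575, 0.0513 and 0.0571) and Nup98 at L2C (0.108). With library size alone 6 did, since Aaas lost its call at all 3 stages (0.224, 0.279 and 0.197), Nup210 at L1C (-0.29, 0.0703), Nup50 at L2C (-0.28, 0.114) and Nup98 at L1C (-0.02, 0.896) and L2C. Nup98 at L2C (-0.23, adjusted p = 0.0448) lost its call without any one of 5 of the 6 L2C libraries (0.0717 to 0.108), and stood at 0.02 with library size alone. Aaas lost its call at MII without MII input 1 or MII IP 1 or 3 (0.0694 to 0.084). It lost it at L1C without the L1C input 3 or IP 3 (0.0602 to 0.0793), and at L2C without the L2C input 2 or IP 2 (0.0748 to 0.123). The depletion of Nup153 at MII was lost without MII input 2 or 3 or MII IP 1 or 2 (0.0697 to 0.114) and with the block (0.0831). It was also lost with library size alone (-0.12, edgeR adjusted p = 0.485), no filter (0.121) and DESeq2 (0.0855). That of Nup205 at L1C was lost without L1C input 1 (0.0662) or L1C IP 3 (0.0819) and with library size alone (-0.30, 0.203).

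IP/input itself changed between stages for few members, and at single steps in numbers near the mRNA shares. At L1C against MII, 2 members were higher and 1 lower, beside 3.81% and 5.03% of mRNAs, at L2C against L1C 2 and 1, beside 6.09% and 5.41%, and at L2C against MII 6 and 0, beside 13.5% and 10.9%. With library size alone the first split was 4 and 1, and the last 8 and 0. Ranbp2 went from depletion to enrichment, with -0.79, -1.11 and -0.69 in MII oocytes, 0.27, 0.44 and 0.28 at L1C and 0.55, 0.75 and 0.62 at L2C. MII overlapped neither later stage, with a difference of 1.49 ± 0.22 at L2C against MII (edgeR adjusted p = 9.91e-05). Nup98 had -1.06, -1.03 and -1.09 in MII oocytes, -0.25, -0.31 and -0.42 at L1C and -0.23, -0.23 and -0.24 at L2C, and its step was at L1C (0.74 ± 0.13, adjusted p = 9.52e-04). Nup153 had -0.41, -0.46 and -0.23 in MII oocytes, -0.78, -0.57 and -0.70 at L1C and 0.44, 0.76 and 0.57 at L2C, changing sign between L1C and L2C (1.27 ± 0.18, adjusted p = 3.90e-04). Nup160 had -1.27, -1.50 and -1.54 in MII oocytes, -1.04, -1.10 and -1.20 at L1C and -0.15, -0.39 and -0.19 at L2C, with its step after L1C too.

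Nup155 was the 1 member whose IP/input fell at L1C, with 0.02, 0.04 and 0.12 in MII oocytes, -0.72, -0.75 and -0.71 at L1C and -0.18, -0.34 and -0.08 at L2C and a difference of -0.79 ± 0.19 (edgeR adjusted p = 0.0137). This call was lost with no filter (-0.79, edgeR adjusted p = 0.0506). Nup188 was lower at L2C than at L1C by 0.78 (adjusted p = 0.0173), a call lost with replicate number as a block (-0.79, adjusted p = 0.0524). Ndc1, with -0.83, -0.94 and -1.13 in MII oocytes, -0.44, -0.46 and -0.52 at L1C and -0.06, -0.23 and -0.14 at L2C, was higher at L2C than at MII by 0.82. Nup205 was too (0.78, adjusted p = 0.0465), but its call was lost without any one of 7 libraries (adjusted p 0.0625 to 0.18) and with the block (0.0564). Not called between L1C and L2C were Nup50, with -0.96, -1.08 and -0.96 in MII oocytes, -0.99, -1.27 and -1.12 at L1C and -0.71, -0.25 and -0.70 at L2C (0.58, adjusted p = 0.0563), and Rae1, with -0.50, -0.44 and -0.62 in MII oocytes, -0.29, -0.43 and -0.00 at L1C and -0.58, -0.86 and -0.61 at L2C (-0.44, adjusted p = 0.166). Nup210l, on few counts at MII, had 1.08, 0.94 and -0.40 in MII oocytes, 0.21, 0.23 and 0.20 at L1C and 0.29, -0.01 and 0.26 at L2C and was not called between MII and L2C (-0.46, adjusted p = 0.591). Ranbp2 and Nup205 rose in input from MII to L2C as their IP/input rose, while Nup153 and Ndc1 fell in input.

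The m6A writer prefers a short consensus whose most used form is GGACT in DNA letters. Its sites in the most depleted member, Nup62, and in Pom121, which was enriched at all stages, are shown with 8 bases on either side, from the longest protein-coding transcript in GENCODE M21 (GRCm38), with the pentamer in capitals.
Nup62 site 1, chr7:44828694-44828714, plus strand: taattttgGGACTccctccca
Nup62 site 2, chr7:44829315-44829335, plus strand: tagtgctgGGACTttgggctt
Nup62 site 3, chr7:44829528-44829548, plus strand: agcagctgGGACTgccacagg
Nup62 site 4, chr7:44829745-44829765, plus strand: caggagctGGACTttatcctg
Nup62 site 5, chr7:44830012-44830032, plus strand: gcacacatGGACTctcttcag
Nup62 site 6, chr7:44830602-44830622, plus strand: tgtggcagGGACTgactgctg
Pom121 site 1, chr5:135383915-135383935, minus strand: gagctcatGGACTtccccacc
Pom121 site 2, chr5:135377197-135377217, minus strand: gtaatgccGGACTtaatgtca
Sites 1 to 5 of Nup62 lie in the coding sequence of exon 2 and site 6 in the untranslated part of the same exon, and Pom121 has site 1 in the coding sequence of exon 8 and site 2 in the untranslated part of exon 13. Nup62 holds 2.20 GGACT per kilobase, Pom121 0.358, and the enriched Nup37 none in 1277 bases. Nup93, also depleted, holds 3.07, the most of the members. Over 27 members the median was 0.963 per kilobase (1.05 over 16062 mRNAs), and density and log2 IP/input had a Spearman rho of -0.641 at MII, -0.449 at L1C and -0.45 at L2C, where all mRNAs had -0.0696, -0.0789 and -0.134. With the wider consensus (A, G or T, then A or G, then AC, then A, C or T) the members had 0.131, 0.232 and 0.223. The points share libraries, the density takes no account of introns that the counts include, and the pentamer alone does not say where m6A was.

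The knockdown used 3 crRNAs against Ythdc1, whose sites on the plus strand of GRCm38 are in exons, that of crRNA 3 across an exon junction. They are shown because each was also set against the transcripts of all 28 members.
crRNA 1, against chr5:86817026-86817048: cctcattctcagtgttgttgccc
crRNA 2, against chr5:86815667-86815689: aattcatcatcctgttctggtac
crRNA 3, against chr5:86816772-86816792 and chr5:86816907-86816908: ctctcagaaccatctggtgtagg
The spacers are antisense to Ythdc1 mRNA. The closest stretch in any member transcript differed at 7 of 23 positions (Nup205), 5 (Nup54) and 6 (Nup214), and the longest transcripts of Aaas and Rae1, the members that changed most, differed at 10, 10 and 7 and at 9, 9 and 8 positions at least.

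In Ythdc1 KD embryos at L2C, more pore mRNAs were higher than lower. Of 14 members tested on the table, 7 were higher and 3 lower than in Ctrl (edgeR adjusted p under 0.05), beside 35.6% and 36.5% of 5661 mRNAs, and of 13 beyond it 8 were higher and 2 lower, beside 33.0% and 35.0% of 12919 mRNAs. With library size alone the table had 5 higher and 5 lower. The median log2 change was 0.17 and 0.31 for the 2 sets of members, and -0.02 and -0.03 for the mRNAs. Most changes were small: by the study's thresholds applied to the edgeR fits (unadjusted P under 0.05 and over 1 on the log2 scale), 1 member was higher (Rae1, on the table, beside 13.8% of mRNAs higher and 19.6% lower) and 1 lower (Aaas, beside 21.2%). Nup210 was at 0 or under 3 CPM in all 6 libraries and was not tested. Stage markers moved too, with 1 of 7 2-cell markers higher and 6 lower, and 1 of 9 oocyte markers higher and 7 lower, in the 5 libraries. The 7 markers of the 2-cell embryo summed to 436 to 478 CPM in Ythdc1 KD and 969 to 1032 in Ctrl, the 9 oocyte markers to 775 to 847 and 1617 to 1747, and the 5 sperm genes to at most 0.107 and 4.13. Their part in these results was not tested. Of the genes that use the pore, tested in the 5 libraries beside the 33.0% and 35.0% of all mRNAs, 14 of 24 importins and exportins were higher and 5 lower. Of 6 Ran cycle genes, 3 were higher and 2 lower. Of 13 mRNA export genes, 4 were higher and 4 lower. Of 7 pore-associated genes 3 were higher and 1 lower, and of 8 lamina and envelope genes 7 were higher and 0 lower.

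**Figure D3:**
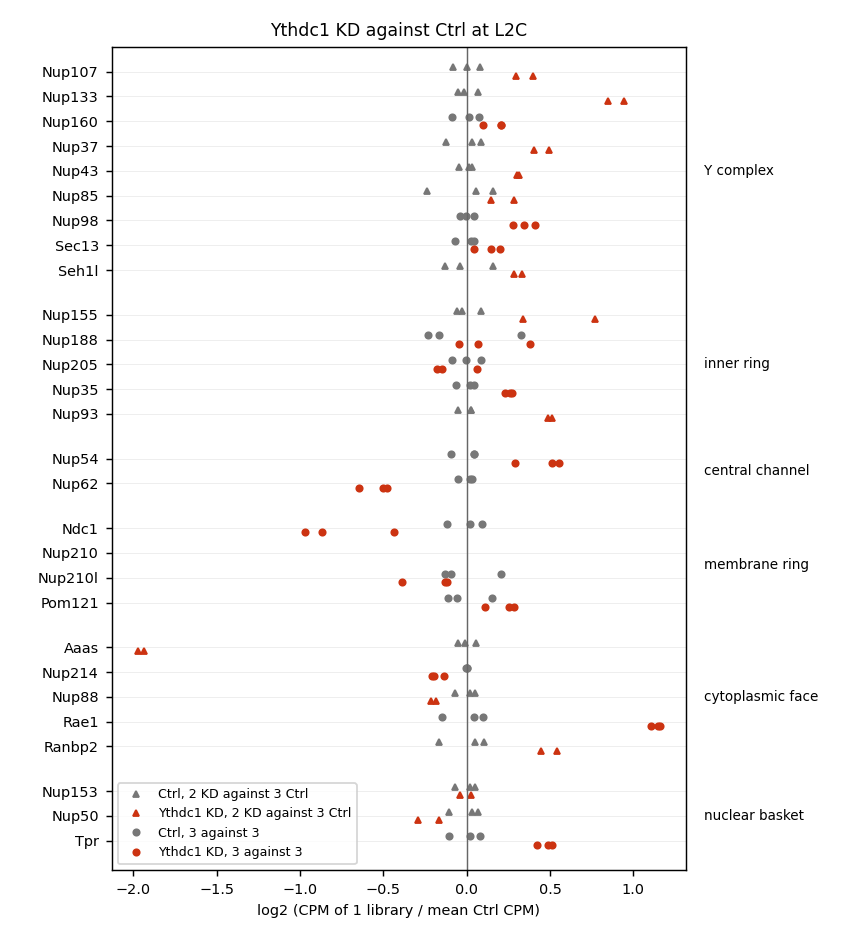
Log2 ratio of each library's CPM to the mean Ctrl CPM for 27 pore mRNAs in Ythdc1 KD (red) and Ctrl (grey), with circles for 3 against 3 libraries and triangles for 2 against 3, and Nup210 not drawn. Rae1 stands alone on the right and Aaas on the left, and most other Ythdc1 KD points lie within 1 unit of 0.

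On the cytoplasmic face, Rae1 was at 154, 148 and 152 CPM in Ythdc1 KD and 61.9, 70.7 and 73.3 in Ctrl, without overlap (1.14 ± 0.09, edgeR adjusted p = 5.69e-09). Aaas was at 6.46 and 6.30 CPM in 2 Ythdc1 KD libraries and 24.6, 23.9 and 25.8 in Ctrl, a linear fold of 0.258 (-1.95 ± 0.15, adjusted p = 3.45e-08). Both fell from MII to L2C in the inputs, and in the knockdown they went opposite ways. Ranbp2 was at 521 and 488 against 386, 371 and 319 CPM, higher by 0.49 ± 0.08. Nup214 was at 328, 312 and 314 against 360.4, 359 and 361 CPM, lower by 0.18, a call lost without Ythdc1 KD library 2 or 3 or Ctrl library 1 or 2 (adjusted p 0.0686 to 0.0734). Nup88 was not called (-0.20, adjusted p = 0.0762).

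In the Y complex, no member was lower. Nup133, counted here over exons without strand, was at 38.4 and 41.02 CPM against 21.1, 22.4 and 20.6, higher by 0.89 ± 0.11 (edgeR adjusted p = 4.60e-06). Nup98 was at 3771, 3599 and 3946 against 3059.8, 2962 and 2883 CPM (0.34, adjusted p = 1.91e-05), and Nup107 at 107 and 99.9 against 85.9, 81.5 and 76.8 (0.35). None of these 3 overlapped between the groups. Nup37 was at 18.4 and 17.3 against 13.8, 12.00 and 13.4 CPM (0.45), Nup43 at 248 and 251 against 207, 204 and 195 (0.31) and Seh1l at 194 and 188 against 172, 150.01 and 141 (0.31). Nup160 was at 336, 311 and 335 against 306, 294 and 273 CPM (0.17). The call of Nup37 was lost without Ythdc1 KD library 1 (adjusted p = 0.0809) or Ctrl library 2 (0.0682), and that of Seh1l without Ythdc1 KD library 1 (0.0551). The call of Nup160 was lost without Ythdc1 KD library 1 or 3 or Ctrl library 2 or 3 (0.0817 to 0.119). Nup85 and Sec13 were not called (0.22 and 0.13).

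Of the inner ring, Nup155 was at 160.00 and 119 against 99.9, 91.9 and 90.03 CPM, higher by 0.57 ± 0.11 (edgeR adjusted p = 3.11e-04) with a wide gap between the 2 Ythdc1 KD libraries. Nup93 was at 48.7 and 49.6 against 35.5, 35.4 and 33.5 (0.50) and Nup35 at 711, 694 and 716 against 611, 599.5 and 567 (0.25), both without overlap. The large adaptors Nup205 and Nup188, which took opposite courses between stages, were not called (-0.09 and 0.17). The channel partners Nup54 and Nup62 parted. Nup54 was at 146, 169.9 and 175 against 123, 112 and 123 CPM, higher by 0.46 ± 0.09 (adjusted p = 1.99e-04). Nup62 was at 229, 207 and 232 against 312, 331 and 329, lower by 0.54 ± 0.07 (adjusted p = 2.73e-06).

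In the membrane ring, Ndc1 was at 21.2, 22.8 and 30.7 CPM against 38.4, 44.3 and 42.2, lower by 0.73 ± 0.15 (edgeR adjusted p = 3.20e-04) without overlap. Pom121 was at 155, 172 and 175 against 133, 138 and 160.3 (0.22), with overlap of 1 library, and its call was lost without Ythdc1 KD library 2 or 3 or Ctrl library 1 or 2 (adjusted p 0.0674 to 0.128). Nup210l was not called (-0.21). In the basket, Tpr was at 2877, 2743 and 2917 against 2164, 2080.2 and 1899 CPM, higher by 0.47 ± 0.06 (adjusted p = 1.15e-06). Nup153 was not called (-0.01). Nup50 was at 109 and 99.9 against 125, 114 and 129, lower by 0.23, a call lost without either Ythdc1 KD library (adjusted p 0.0611 and 0.301) or the first Ctrl library (0.0902).

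**Figure D4:**
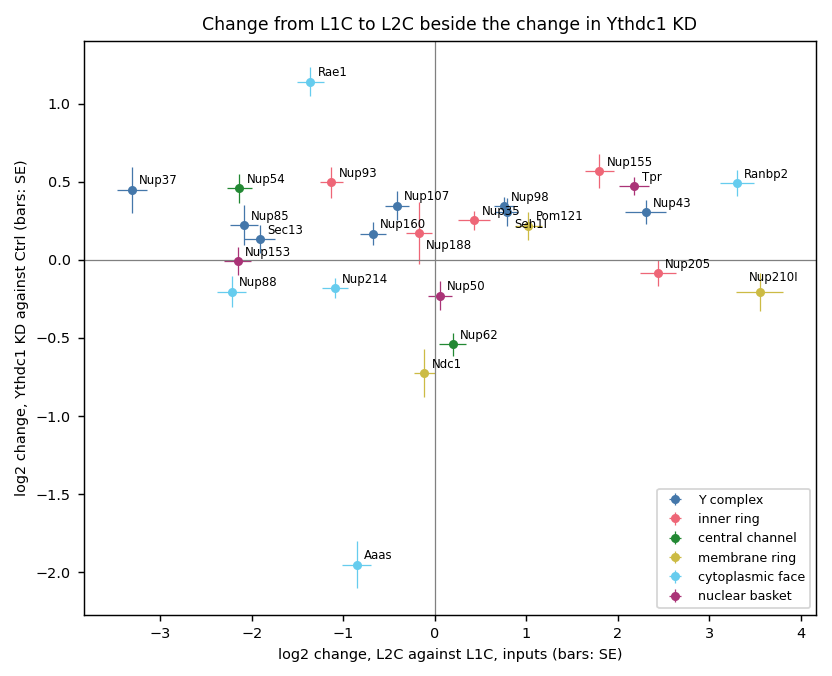
Log2 change of 26 pore mRNAs from L1C to L2C in the inputs (x axis) beside the log2 change in Ythdc1 KD against Ctrl (y axis), coloured by place in the pore with SE bars. Most of the mRNAs that rose to L2C lie above 0 on the y axis, and of the mRNAs that fell, Aaas lies lowest and Rae1 highest.

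The 2 experiments shared no library, and the changes can be set side by side. Here all knockdown calls come from the 5 libraries, and Nup133 is left out. Of 10 members that rose from L1C to L2C, 7 were higher in Ythdc1 KD (Nup155, Nup35, Nup43, Nup98, Ranbp2, Seh1l and Tpr) and 0 lower. Of the 5934 mRNAs of the whole annotation that rose likewise and were tested in the 5 libraries, 45.2% were higher and 22.6% lower. Of 12 members that fell, 5 were higher (Nup107, Nup37, Nup54, Nup93 and Rae1) and 1 lower (Aaas), where of 4697 falling mRNAs 20.1% were higher and 48.4% lower. These shares are a description, since the members are few and many of their calls rest on small changes.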

How the data were processed

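SLIM-seq inputs and IPs (3 each at MII, L1C and L2C) were deposited by the authors as kallisto estimated counts (expected counts) with TPM values, with 1 target per gene covering its whole span, introns included, on GRCm38. TPM values were not used. Knockdown libraries were deposited as featureCounts counts over exons without strand, after Trimmomatic and HISAT2. The merged knockdown table held 25739 of 55471 genes (46.4%, 37.5% to 39.0% of counts) and ended on chromosome 7, and 13 members beyond it were fitted in the 5 libraries that covered the whole annotation. Estimated counts were rounded to whole numbers.

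The main test was edgeR's quasi-likelihood test (version 4.0.16, R 4.3.3) with TMM scaling, filterByExpr and Benjamini-Hochberg adjustment over all genes tested, and calls needed an adjusted p under 0.05. Stage changes came from 1 fit of all inputs. IP against input and its differences between stages came from 1 fit of all inputs and IPs together. DESeq2 1.42.0, library size alone, no filter, a replicate block, other rules for a call and leaving out each library were alternatives. The scripts were tested on simulated data. Python 3.11.15 with pandas 2.3.3 and matplotlib 3.10.9 gave summaries and plots. Counting intervals are not given, and depth limits low members such as Nup210l.

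All 28 members are named. Per-library values are given for the 3 members with the smallest p in each direction of each comparison and for all members called in the knockdown, and of each list (importins and exportins, Ran cycle, mRNA export, pore-associated, lamina and envelope) the gene with the smallest p in each direction of each stage comparison is named. Cumulus, oocyte, 2-cell and sperm markers were summed. Members and lists were chosen with earlier results of these data known.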

Additional observations from a re-analysis of the deposited data

Results flagged for a closer look

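The results listed here are those where IP/input, the ratio of precipitated to input mRNA, differed between stages by a test of the difference itself (the interaction term in edgeR, adjusted over all genes). Between MII and L1C it rose by 0.74 ± 0.13 (SE, log2) for Nup98 (edgeR adjusted p = 0.000952) and by 1.18 ± 0.23 for Ranbp2 (adjusted p = 0.00288). It fell at that step by 0.79 ± 0.19 for Nup155 (value -0.79, edgeR adjusted p = 0.0137, and 0.0506 with no filter). Between L1C and L2C it rose by 1.27 ± 0.18 for Nup153 (edgeR adjusted p = 0.00039) and by 0.87 ± 0.19 for Nup160 (adjusted p = 0.00655), and fell for Nup188 (value -0.78, adjusted p = 0.0173, and 0.0524 with replicate number as a block).

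Between MII and L2C it rose for Ranbp2 (1.49 ± 0.22, edgeR adjusted p = 9.91e-05), Nup98 (0.83 ± 0.13, adjusted p = 0.000121), Nup160 (1.19 ± 0.19, adjusted p = 0.000156), Ndc1 (0.82 ± 0.15, adjusted p = 0.000575), Nup153 (0.95 ± 0.19, adjusted p = 0.00115) and Nup205 (0.78 ± 0.27, adjusted p = 0.0465, and 0.0564 with the block). In each of these 6 all 3 IP libraries at L2C had a higher ratio than all 3 at MII. The 6 were picked by a test on these same libraries, so this is a description and no further support. Each ratio is to the mean input of its stage, so spread between inputs does not show in it.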

How the results depend on the processing

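Of 3445 values of single genes under alternatives, 3298 kept direction and call, 92 lost and 54 gained a call, and 1 turned: Nup98 IP/input at L2C was 0.025 with library size alone. With library size alone, higher members in the IP numbered 5 (MII) and 8 (L1C), IP/input was higher for 4 at L1C against MII, and 5 were lower in the knockdown table. With a log2 change above 1 also required, 2 were higher and 5 lower at L1C against MII; in the IP 0 and 8 (MII), 1 and 5 (L1C), 2 and 2 (L2C); for IP/input 1 and 0, 1 and 0, and 2 higher at the 3 stage contrasts; and in the knockdown 1 and 0 on the table and 0 and 1 beyond it, the same counts as by the study's knockdown thresholds. Its thresholds for tagged mRNAs, applied to the edgeR fit, gave 5 at L1C. With no filter 5 were higher in the IP at L1C and 0 had lower IP/input at L1C than MII. With DESeq2, IP/input was higher for 4 at L1C and lower for 1 at L2C against MII, and 1 was lower in the knockdown beyond the table. Without members inside another gene's span, chosen after seeing the data, higher members numbered 5 for L2C against MII and 5 beyond the table. Without single libraries, members higher in the IP at L1C ranged from 3 to 5 (5 without the first L1C input) and members lower beyond the table from 1 to 3 (1 without the first or second Ythdc1 KD or the first Ctrl library). There, a lone Ythdc1 KD library is assumed to vary like the others.

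Same-numbered libraries did not deviate together. Correlations of their deviations ran from -0.212 to 0.153 for IP and input, -0.0832 to 0.158 between stages and -0.0377 to 0.0373 in the knockdown. No pairing by these numbers was therefore seen. Between different numbers, those of input and IP ran from -0.324 (L1C input 1 and IP 3) to 0.387 (L1C input 2 and IP 3). Pairing under another numbering was not tested. With a replicate block, 0 members had lower IP/input at L2C than at L1C (Nup188, adjusted p = 0.0524), lower members in the IP numbered 14 (MII), 14 (L1C) and 9 (L2C; Aaas lost its call at each stage, Nup153 at MII and Nup98 at L2C), and 9 were higher and 3 lower beyond the table.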
